A study of Mus musculus with 2 samples.

Results

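The interferon-stimulated genes described here are 40 genes listed by symbol that encode antiviral effectors, sensors, transcription factors and chemokines. Of the 40 symbols, 38 were found among the 32285 genes counted, and *Mx1* and *Mx2* were not analysed here. The members were chosen by name and not by a measured value. They were followed by single-cell RNA-seq in gingiva of the mouse palate, in 2 libraries. Each library combined equal numbers of cells from 4 female C57BL/6J mice (strain C57BL/6 in the labels) of 8 to 12 weeks that had received 3 µl of a 1 µg/ml ligand solution under an oral appliance for 1 h. The ligand was CpG ODN, a synthetic DNA oligonucleotide that stimulates TLR9, in the first group, and *P. gingivalis* LPS, a ligand of TLR2/4, in the second group. Gingiva was harvested on day 4. Gingiva without ligand was not analysed here, so every comparison is of CpG ODN against LPS and none is against a resting level. As the mice of a ligand were combined, there was 1 library per ligand, no test between ligands was possible, and the intervals (95%) cover counting error only.

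Type I interferons signal through the IFNAR receptor to a complex that contains STAT2 and IRF9 and binds the interferon-stimulated response element (ISRE) of target genes. Type II interferon signals through the IFNGR receptor, and its target genes often carry a gamma-activated site (GAS). In mucosal epithelium the products of these genes limit viral replication, and in many cells they also mark exposure to bacterial ligands and nucleic acids, since TLR3, TLR4, TLR7 and TLR9 can induce interferon.

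Many of the members, though not all, carry a sequence mark of these pathways near the gene start. RefSeq windows of GRCm38.p6 that run from 250 bases before to 50 bases after the gene start were at hand for 29 members. The ISRE core, searched on both strands as 2 copies of GAAA with any 2 bases between them, was in 18 of the 29 members (62.1%) and in 3.99% of 27025 genes. The GAS core, searched as TTCNNNGAA, was in 7 of the 29 members (24.1%) and in 9.55% of genes. In the stretches below, the 120 bases before the RefSeq start are written 5′ to 3′ on the strand of the gene, with both motifs in capitals wherever they were found. They are shown because *Isg15*, *Ifit1* and *Gbp3* were higher after CpG ODN in the epithelium, *Irf1* was near equal there, and *Igtp* holds both motifs. They do not stand for the other members. *Gbp7* was also higher there and held both cores, but *Oasl2* and *Ifi44* were higher and held neither. *Stat2* and *Cxcl10* were near equal there and held an ISRE core.
Isg15 (chr4:156200819-156200938, minus strand): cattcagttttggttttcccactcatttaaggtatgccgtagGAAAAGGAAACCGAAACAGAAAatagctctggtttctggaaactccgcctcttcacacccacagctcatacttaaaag
Ifit1 (chr19:34640769-34640888, plus strand): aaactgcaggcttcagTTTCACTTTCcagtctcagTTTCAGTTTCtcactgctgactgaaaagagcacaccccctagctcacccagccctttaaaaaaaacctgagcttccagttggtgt
Gbp3 (chr3:142559924-142560043, plus strand): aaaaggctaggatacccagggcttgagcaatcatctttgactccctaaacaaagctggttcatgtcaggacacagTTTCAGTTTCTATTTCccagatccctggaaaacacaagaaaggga
Igtp (chr11:58199436-58199555, plus strand): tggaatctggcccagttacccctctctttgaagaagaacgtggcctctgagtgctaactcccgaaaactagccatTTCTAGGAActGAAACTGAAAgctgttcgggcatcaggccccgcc
Irf1 (chr11:53769894-53770013, plus strand): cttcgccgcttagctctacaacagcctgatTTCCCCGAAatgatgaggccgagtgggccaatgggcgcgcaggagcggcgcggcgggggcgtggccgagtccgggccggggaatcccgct
*Isg15*, a ubiquitin-like modifier on chromosome 4, had 3 overlapping ISRE cores that began 78, 72 and 66 bases before the start. *Ifit1*, which binds foreign RNA, had 2 ISRE cores at 104 and 85 bases, and *Gbp3*, a guanylate-binding GTPase, had 2 overlapping cores at 45 and 39 bases. *Igtp*, an immunity-related GTPase, had a GAS core at 45 bases and an ISRE core at 34 bases. *Irf1*, an early interferon-responsive transcription factor, had a GAS core at 90 bases and no ISRE core in this stretch. A match describes letters only and is no measurement of binding.

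Each captured RNA molecule carried a unique molecular identifier (UMI), and levels are UMIs of a gene or of all members per 1000000 UMIs of the cells (CPM). Reads were taken at the 3′ end, so CPM was not divided by gene length. A cell was kept when 800 or more genes were detected in it. This left 4888 of 6219 CpG ODN barcodes (median 11080 UMIs) and 1277 of 2016 LPS barcodes (median 22680 UMIs). The LPS cells were thus read more deeply, and shares of cells that held a gene are given only at equal depth or with both values. Among the kept cells, 1 barcode occurred in both libraries. Clustering, in which neither the members nor the other interferon pathway genes took part, gave 29 clusters, of which 27 were named from marker genes and 8 classes had at least 10 cells in each library. Gene coordinates are those of GRCm38.

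All 38 members were detected. Their totals over both libraries ranged from 8 UMIs (*Oas2*) to 5946 UMIs (*Irf1*), 37 members had at least 20 UMIs, and the members together gave 15349 UMIs in the CpG ODN library and 7874 in the LPS library. Over all cells the summed level was 217.5 CPM after CpG ODN and 211.9 CPM after LPS, a ratio of 1.03 (0.999 to 1.06). In what follows a member was compared when it had at least 20 UMIs over both libraries, and it is called higher or lower when the ratio passed 2-fold. Over all cells 3 of 37 compared members were higher after CpG ODN, against 3.18% of all genes, and 1 was lower, against 4.96%. These were *Cxcl9* (11.8), *Ifit1* (2.43) and *Oasl1* (2.27), and *Ifi204* (0.440). The near-equal sum of all cells covered classes that differed in opposite directions.

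By CPM, the summed level of the 8 compared classes was lowest in epithelial-like cells in both libraries. These cells nevertheless held 9085 of 15349 member UMIs after CpG ODN and 4878 of 7874 after LPS. After CpG ODN the summed level was highest in endothelial-like cells, at 3187 CPM (2959 to 3429), followed by gland or simple epithelial-like cells at 2402, Schwann-like cells at 2049, myeloid-like cells at 1918, fibroblast-like cells at 1638, T-like cells at 787.6, B-like cells at 652.1 and epithelial-like cells at 140.5 CPM. Without 17 cells rich in epithelial markers, described below, the myeloid-like cells stood at 4518 CPM and came first. The intervals of neighbours overlapped for gland and Schwann-like, Schwann-like and myeloid-like, and T-like and B-like cells. After LPS the order began with myeloid-like cells at 5401 CPM (4923 to 5913) and endothelial-like cells at 2939, followed by Schwann-like cells at 1765, fibroblast-like cells at 1183, T-like cells at 801.1, gland or simple epithelial-like cells at 603, B-like cells at 523.6 and epithelial-like cells at 142.1 CPM. There the intervals of gland and B-like cells overlapped. Gland or simple epithelial-like cells came second after CpG ODN and sixth after LPS, while the place of the myeloid-like cells after CpG ODN depended on those 17 cells.

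**Figure D1:**
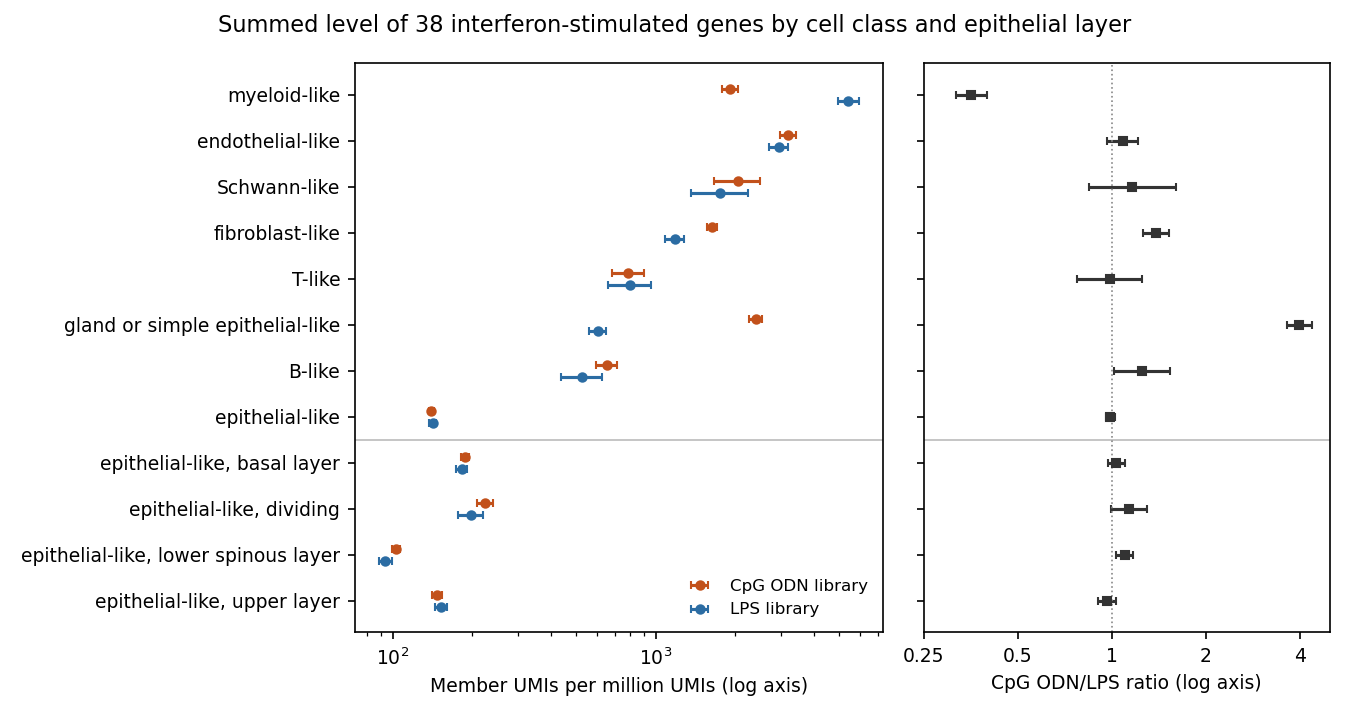
Summed level of the 38 members by cell class and epithelial layer. The left panel plots CPM on a log axis for the CpG ODN library (orange) and the LPS library (blue), and the right panel plots the CpG ODN/LPS ratio on a log axis, with 95% counting intervals as bars. The gland or simple epithelial-like class lies at a ratio of 3.98 and the myeloid-like class at 0.355, while the epithelial-like class lies at 0.989.

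Receptors of the interferons were detected, and the ligands were almost undetected. Over the kept cells of both libraries *Ifnb1*, *Ifna13* and *Ifnk* had 1 UMI each, *Ifng* had 5 and *Ifnz* had 7. The receptor chains had 858 UMIs of *Ifnar1*, 1635 of *Ifnar2*, 1840 of *Ifngr1*, 1190 of *Ifngr2*, 219 of the type III chain *Ifnlr1*, of which 202 were in epithelial-like cells, and 1001 of its partner *Il10rb*. *Tlr9*, the receptor of CpG ODN, had 6 UMIs, all after CpG ODN, and *Tlr4* had 157 and 80. A transcript seen rarely in 3′ droplet data may still be made, so these counts are a limit of detection and not an absence.

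In epithelial-like cells, which made up 3799 and 996 of the kept cells, the summed level did not separate the ligands. It was 140.5 CPM after CpG ODN and 142.1 CPM after LPS, a ratio of 0.989 (0.955 to 1.02). The sum was dominated by *Irf1*, at 44.0 and 48.0 CPM (0.918), and by *Ifi27l2a*, a small interferon-inducible membrane protein, at 23.4 and 27.4 CPM (0.853). Gene by gene, 7 of 27 compared members were higher after CpG ODN, against 1.74% of all genes, and 1 was lower, against 3.23%. The median log2 ratio of the compared members was 0.24, and that of all genes was -0.02.

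The higher members in the epithelium were antiviral effectors. *Isg15* had 443 UMIs with CpG ODN and 76 with LPS, 6.85 and 2.21 CPM, a ratio of 3.10 (2.42 to 4.00). *Ifit1* had 101 and 6 UMIs (8.94, 3.97 to 24.9). *Oasl2*, of the oligoadenylate synthetase-like family, had 115 and 21 UMIs (2.91, 1.82 to 4.88). These 3 genes were thus each higher after CpG ODN with intervals clear of 1. The GTPases *Gbp3* (34 and 1 UMIs, 18.1) and *Gbp7* (53 and 9, 3.13), the chaperone-like *Rtp4* (50 and 7, 3.79) and the antiviral *Ifi44* (30 and 2, 7.96) completed the group. By contrast the DNA sensor *Ifi204* had 211 and 327 UMIs, 3.26 and 9.53 CPM, a ratio of 0.343 (0.287 to 0.409), which is 2.92-fold higher after LPS. Most of these UMIs lay in 2 clusters whose own ratios were nearer to 1. Cluster 26, led by *BC037156*, *Sprr2d* and *Odam*, had 52 and 152 UMIs of *Ifi204* at 219.2 and 266.3 CPM (0.823, 0.589 to 1.14), and it held 17 of 3799 CpG ODN cells and 16 of 996 LPS cells. Cluster 16 of the upper layer had 99 and 119 UMIs of *Ifi204* (0.734, 0.557 to 0.967) in 81 and 31 cells. The libraries thus differed in the share of cells in cluster 26, and its weight in the class difference of *Ifi204* was not tested. *Ifi204* was also lower after CpG ODN in cluster 14, described below. In the upper layer alone *Ifi204* was at 10.1 and 15.8 CPM (0.640), and the upper layer held 389 of 3799 CpG ODN cells and 161 of 996 LPS cells. The transcription factors did not pass 2-fold, with *Irf9* at 9.82 and 11.4 CPM (0.865), *Stat2* at 3.14 and 3.41 CPM (0.921) and *Irf7*, the master regulator of type I interferon, at 1.42 and 0.874 CPM (1.63, 1.07 to 2.55). The chemokine *Cxcl10*, which draws CXCR3-bearing lymphocytes, was at 13.1 and 12.4 CPM (1.06, 0.939 to 1.19).

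The layers of the epithelium differed less in the sum than in *Isg15*. The summed ratio was 1.03 in the basal layer, 1.13 in dividing cells, 1.10 in the lower spinous layer and 0.963 in the upper layer. *Isg15* was at 10.5 and 2.85 CPM in the basal layer (3.68, 2.39 to 5.91), at 14.3 and 1.22 CPM in dividing cells (11.7, 3.08 to 99.4), at 1.10 and 0.517 CPM in the lower spinous layer (2.13, 0.931 to 5.68) and at 14.4 and 3.84 CPM in the upper layer (3.75, 2.64 to 5.43). The lower spinous layer therefore had the lowest *Isg15* value in both libraries. After LPS, *Isg15* and *Usp18* together had only 8 UMIs there and 3 in dividing cells, too few to rank these layers. In dividing cells 1 CpG ODN cell held 45.1% of the *Isg15* UMIs, and in the upper layer 1 cell held 45.3%. In the basal layer 10 of 24 compared members were higher after CpG ODN, against 0.987% of all genes, and 0 were lower, against 1.84%. Of these *Gbp3* (12.8), *Ifit1* (7.72), *Ifi44* (at least 4.26) and *Igtp* (3.99) had the highest ratios. In dividing cells 2 of 10 were higher, against 2.50%, and 0 were lower, against 1.60%. In the lower spinous layer 1 of 13 was higher, against 1.57%, and 0 were lower, against 1.07%. In the upper layer 3 of 16 were higher, against 1.38%. In the upper layer *Ifi27l2a* was lower after CpG ODN, at 5.15 and 21.9 CPM (0.235, 0.177 to 0.310), against 3.56% of all genes. *Cxcl10* ran the other way between layers, at 7.34 and 10.7 CPM in the basal layer (0.686) and 21.2 and 14.9 CPM in the upper layer (1.43). Single cells weighed heavily here. In the basal layer 1 LPS cell held 40 *Cxcl10* UMIs, where *Cxcl9* and *Cxcl10* together had 90. In the upper layer 1 CpG ODN cell held 71, where both together had 280.

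The excess of the basal layer after CpG ODN lay in cluster 7. This cluster, singled out after its values were seen, was led by *H19*, *Six3*, *Barx2*, *Dynap* and *Adh7*, with the basal keratins *Krt5* and *Krt15* among its markers. *Krt14* and *Dsp* were not among them, whereas clusters 1, 2, 6 and 9 of the basal layer had both. Its place in the basal layer is thus less sure than theirs. It held 189 CpG ODN cells and 109 LPS cells, 4.98% and 10.9% of the epithelial-like cells, and 16.1% and 17.3% of their member UMIs. The summed level was 684.5 CPM after CpG ODN and 322.6 CPM after LPS, a ratio of 2.12 (1.95 to 2.31), and without the top cell of each library it was 2.14. In the other epithelial-like cells it was 122 and 127.2 CPM, 0.959 (0.923 to 0.996). Of 20 compared members 14 were higher after CpG ODN, against 2.46% of all genes in the cluster, and 0 were lower, against 2.03%. The median log2 ratio was 2.01 for the compared members and 0.02 for all genes.

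*Isg15* had the most UMIs among the higher members of cluster 7. It had 149 UMIs in 30 of 189 CpG ODN cells and 13 UMIs in 11 of 109 LPS cells, that is 69.9 and 4.98 CPM, a ratio of 14.04 (7.96 to 26.98). Its protease *Usp18*, which also restrains the IFNAR receptor, had 25 and 9 UMIs (3.40, 1.54 to 8.28). The modifier and its protease were thus both higher after CpG ODN in these cells. Other antiviral effectors followed, with *Oasl2* at 66 and 7 UMIs (11.6, 5.30 to 29.8) and *Ifit1* at 27 and 0 UMIs, which is at least 11.0-fold when a count of 0 is taken to allow 3. *Rtp4* had 30 and 3 UMIs (12.3, 3.81 to 62.7). *Bst2*, which tethers budding virions, had 62 and 13 UMIs (5.84, 3.18 to 11.6). *Xaf1*, a pro-apoptotic factor, had 25 and 5 (6.12), *Ifi44* had 21 and 0 (at least 8.57-fold), *Parp14*, a mono-ADP-ribosyltransferase, had 26 and 11 (2.90) and *Ifi35* had 56 and 25 (2.74). Of the guanylate-binding proteins, *Gbp2* had 20 and 3 UMIs (8.16) and *Gbp3* had 20 and 0 (at least 8.16-fold). The transcription factors divided. *Irf7* had 40 and 7 UMIs (6.998, 3.10 to 18.5), whereas *Irf9* had 61 and 53 (1.41, 0.959 to 2.08), *Stat2* had 31 and 25 (1.52, 0.868 to 2.68) and *Irf1* had 214 and 287 (0.913, 0.761 to 1.09). *Cxcl10* had 40 and 20 UMIs (2.45, 1.40 to 4.42). *Ifi27l2a*, the most abundant member of the cluster, was at 187.7 and 114.2 CPM (1.64, 1.41 to 1.92).

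**Figure D2:**
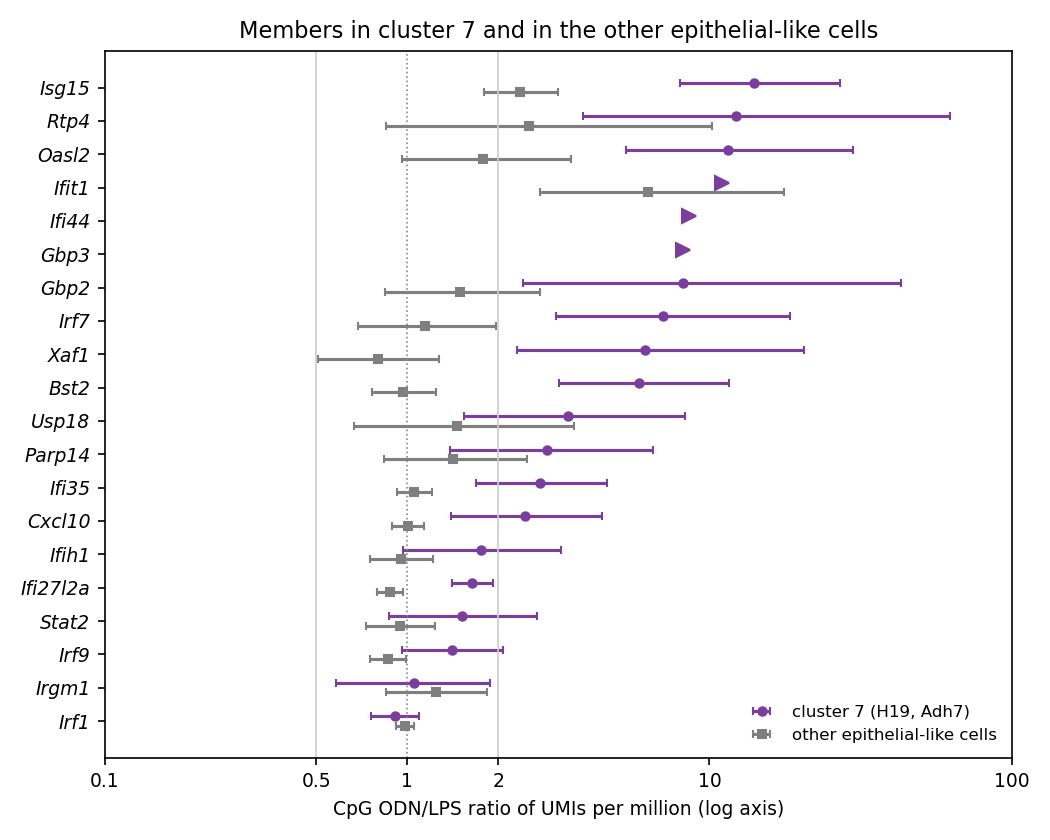
CpG ODN/LPS ratio (log axis) of the 20 members compared in cluster 7 (purple circles), beside the same members in the other epithelial-like cells where they had at least 20 UMIs (grey squares), with 95% counting intervals. Triangles mark lower bounds for members with 0 UMIs after LPS, and vertical lines mark ratios of 0.5, 1 and 2. *Isg15* lies at 14.04 in cluster 7, and *Irf1*, at the foot, lies at 0.913.

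Without cluster 7 the basal layer lost the excess. The other basal cells had a summed level of 111.5 and 120.2 CPM (0.928, 0.848 to 1.02), 0 of 14 compared members were higher, against 1.10% of all genes, and 1 was lower, against 1.13%, and the ratios of *Isg15*, *Oasl2* and *Irf7* were 0.656, 0.530 and 0.707. Over all epithelial-like cells outside cluster 7, 4 of 24 were higher, against 1.82% of all genes, and 1 was lower, against 3.04%. Outside clusters 7 and 14 it was 1 of 22 higher, against 1.68%, and 2 lower, against 3.12%. Of the other pathway genes, 10 of 41 compared in cluster 7 were higher and 0 were lower, with *Sp100* at 5.51, *Phf11d* at 4.63 and the RNA-activated kinase *Eif2ak2* at 3.28. Markers of immune cells were scarce in cluster 7. The 12 myeloid markers summed to 16.4 and 13.4 CPM, with *Csf1r* at 0 in both libraries, the 8 T cell markers to 8.91 and 13.8 CPM, with *Cd3e*, *Cd3d* and *Cd3g* at 0, and the markers of NK cells and plasmacytoid dendritic cells were all at 0. The 8 B cell markers summed to 6.57 and 1.15 CPM and the 7 fibroblast markers to 375.3 and 740.9 CPM. Of the 14 higher members, 11 had a promoter window and 6 of these held an ISRE core, and of the other compared members 5 had a window and 3 held an ISRE core.

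Cluster 14, an upper layer cluster led by *Krt4* and *Dynap*, also had an excess in the sum, and that summed excess rested on 1 cell. Its 84 CpG ODN and 64 LPS cells had 276.9 and 190.9 CPM (1.451, 1.302 to 1.617), but 1 CpG ODN cell held 32.0% of the member UMIs, 216 in all, of which 86 were *Isg15* and 41 *Ifit1*. Without the top cell of each library the ratio was 1.07 (0.948 to 1.21). This holds for the sum, as the other CpG ODN cells still held more *Isg15* and *Ifit1* UMIs than the LPS cells. With all cells, *Isg15* had 143 and 16 UMIs (12.9) and *Ifit1* 56 and 2 (40.5), 5 of 11 compared members were higher, against 1.62% of all genes, and 3 were lower, against 2.27%: *Ifi27l2a* (0.220), *Ifi204* (0.268) and *Irf1* (0.477). Over the 15 epithelial-like clusters with at least 10 cells in each library, the summed ratio ran from 0.670 to 2.12 and was above 1 in 7.

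The members were found together in few epithelial cells. Cells were thinned to 5000 UMIs, and those with fewer were left out, 135 and 13 of the epithelial-like cells. The share of epithelial-like cells then expected to hold 5 or more members was 0.927% after CpG ODN and 0.192% after LPS. In cluster 7 it was 13.3% and 0.669%, in cluster 14 it was 5.34% and 0.297%, and in the lower spinous layer it was 0.0283% and 0.00887%. The unthinned shares of all epithelial-like cells ran the other way, at 2.05% and 7.03%, with LPS cells read more deeply. At least 10 members were detected in 31 epithelial-like CpG ODN cells (0.816%), 18 of them in cluster 7 and 6 in cluster 14. Among LPS cells there were 6 (0.602%), 1 of them in cluster 7. In cluster 7 the shares were 9.52% and 0.917%. These shares are not at equal depth.

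**Figure D3:**
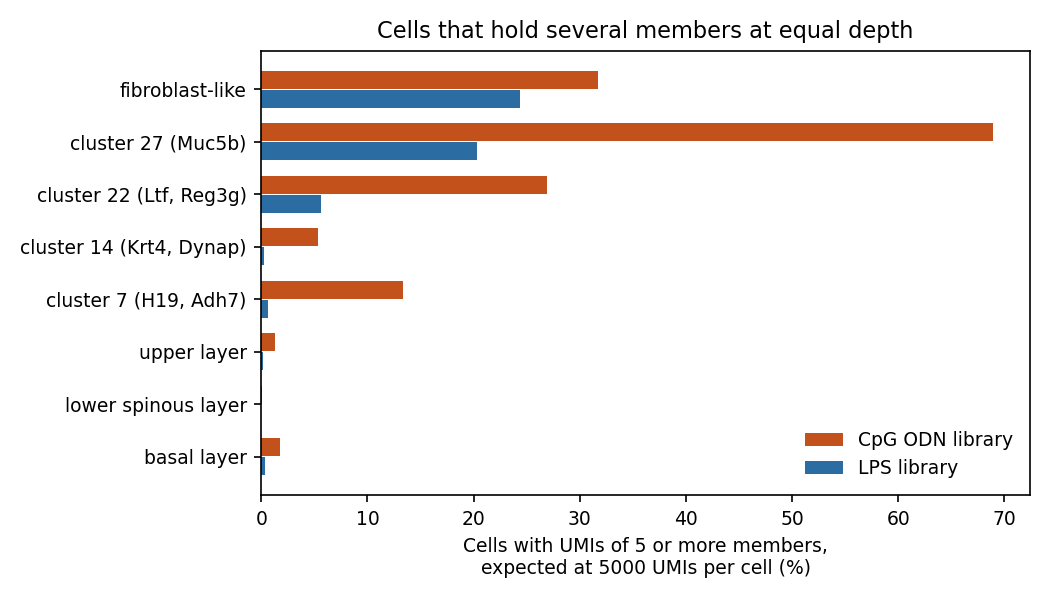
Share of cells (%) expected to hold UMIs of 5 or more members when each cell is thinned to 5000 UMIs, by group of cells, in the CpG ODN library (orange) and the LPS library (blue). Cells with under 5000 UMIs are left out. Cluster 7 reached 13.3% after CpG ODN and 0.669% after LPS, and cluster 27 reached 69.0% and 20.3%.

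Gland or simple epithelial-like cells had the widest CpG ODN excess. The class held 27 CpG ODN and 50 LPS cells with 2402 and 603 CPM of members, a ratio of 3.98 (3.63 to 4.37). Of 23 compared members 19 were higher, against 5.22% of all genes, and 0 were lower, against 7.32%. *Cxcl10* had 263 UMIs with CpG ODN and 16 with LPS, or 510.6 and 13.4 CPM, a ratio of 38.2 (23.1 to 67.8). *Isg15* had 129 and 36 UMIs (8.32, 5.71 to 12.4), and *Ifit1* had 64 and 19 (7.82, 4.63 to 13.8). A chemokine and a pair of antiviral effectors were thus among the higher members of the class. *Ifit3*, a partner of *Ifit1*, had 19 and 1 UMIs (44.1, 7.01 to 1833), *Oasl2* 50 and 17 (6.83) and *Parp14* 27 and 10 (6.27). *Ifi27l2a* ran the other way, with 40 and 147 UMIs (0.632, 0.434 to 0.901). *Irf1* was at 233 and 124.6 CPM (1.87, 1.46 to 2.39). Among the other pathway genes 16 of 38 were higher, with the RNA sensor *Ddx58* at 3.79, and 2 were lower, *Il10rb* (0.193) and *Ifngr1* (0.492).

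The class joined 2 clusters in unlike proportions, and a few cells weighed heavily. Cluster 27, led by the mucin *Muc5b*, held 12 CpG ODN and 14 LPS cells and had 3587 and 920.3 CPM (3.90), with 16 of 21 compared members higher, against 3.29% of all genes, and 0 lower, against 6.66%. Cluster 22, led by *Ltf* and *Reg3g*, held 15 and 36 cells and had 1018 and 458.7 CPM (2.22), with 7 of 10 higher, against 11.5%, and 0 lower, against 11.8%. The direction was therefore the same in both. In cluster 27 1 CpG ODN cell held 452 member UMIs, 45.4% of the cluster's, of which 202 were *Cxcl10*. Without the top cell of each library the ratio was 3.45 (2.94 to 4.05) in cluster 27, 1.852 (1.504 to 2.271) in cluster 22 and 3.18 in the class, and *Cxcl10* in the class was at 13.5. Cells in which the 14 epithelial markers held over 1% of the UMIs numbered 5 in each library, and without them the class ratio was 4.85 (4.40 to 5.35).

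Fibroblast-like cells, 236 and 54 in number, had 1638 and 1183 CPM of members, a ratio of 1.39 (1.26 to 1.52). Of 22 compared members 7 were higher, against 5.09% of all genes, and 0 were lower, against 3.56%. *Ifit1* had 47 and 5 UMIs (4.46, 1.78 to 14.4), the PYHIN family gene *Ifi207* 59 and 7 (4.00, 1.82 to 10.4) and *Rtp4* 25 and 3 (3.95, 1.21 to 20.4). *Irf9* (2.11), *Ifi204* (2.10) and *Oasl2* (2.02) were just past 2-fold. *Isg15* had 24 and 5 UMIs, and its interval of 0.851 to 7.64 around 2.28 included 1. *Irf1* was at 342.8 and 214.9 CPM (1.595, 1.282 to 1.998), *Cxcl10* at 232.4 and 162.7 CPM (1.43, 1.11 to 1.86) and *Iigp1*, a GTPase that attacks pathogen vacuoles, at 90.5 and 54.2 CPM (1.67, 1.08 to 2.66). *Gbp7* (0.593) and *Ifit2* (0.622) were on the LPS side. Without the 7 and 4 cells rich in epithelial markers the summed ratio was 1.58 (1.42 to 1.75).

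Myeloid-like cells were the only compared class whose summed level was over 2-fold higher after LPS. The 47 CpG ODN cells had 1918 CPM and the 13 LPS cells 5401 CPM, a ratio of 0.355 (0.317 to 0.398), or 2.82-fold higher after LPS. Of 11 compared members 8 were lower after CpG ODN, against 19.1% of all genes, and 0 were higher, against 19.6%. *Isg15* had 42 UMIs with CpG ODN and 78 with LPS, or 95.7 and 900.2 CPM (0.106, 0.0712 to 0.157). *Cxcl10* had 123 and 100 UMIs, or 280.2 and 1154 CPM (0.243, 0.185 to 0.319). *Ifi27l2a* was at 437.3 and 992.5 CPM (0.441) and *Trim30a*, a TRIM protein that dampens TLR signalling, at 22.8 and 126.9 CPM (0.179). *Ifi207* (0.584), *Gbp7* (0.671) and *Irf1* (0.747) were compared and did not pass 2-fold. Of the other pathway genes 21 of 26 were lower after CpG ODN, *Ifnar1* (0.247) and *Ifnar2* (0.284) among them.

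This difference moved with the makeup of the class. In 17 of the 47 CpG ODN cells and 0 of the 13 LPS cells the 14 epithelial markers held over 1% of the UMIs. Those 17 cells held 63.7% of the UMIs of the CpG ODN class but 121 of its 842 member UMIs. Without them the class had 4518 CPM after CpG ODN, the ratio was 0.837 (0.744 to 0.942), and 1 of 9 compared members was lower, against 10.3% of all genes. The single remaining lower member was *Isg15* (0.272), and most of its LPS UMIs lay in 1 cell. In the LPS library 1 cell held 164 member UMIs, 35.0% of the class, of which 92 were *Cxcl10* and 57 *Isg15*. Without the cells rich in epithelial markers and without the top cell of each library the ratio was 1.05 (0.918 to 1.21). Neutrophil content also differed, as 1 of 47 CpG ODN cells and 5 of 13 LPS cells had at least 10 UMIs of *S100a8*. The other cells had 1919 CPM of members after CpG ODN and 5473 CPM after LPS, close to the levels of the whole class. Per cell the summed level ran from 0 to 14280 CPM with a median of 2308 after CpG ODN, and from 295.5 to 17100 CPM with a median of 3271 after LPS, so the cells of the libraries overlapped widely.

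**Figure D4:**
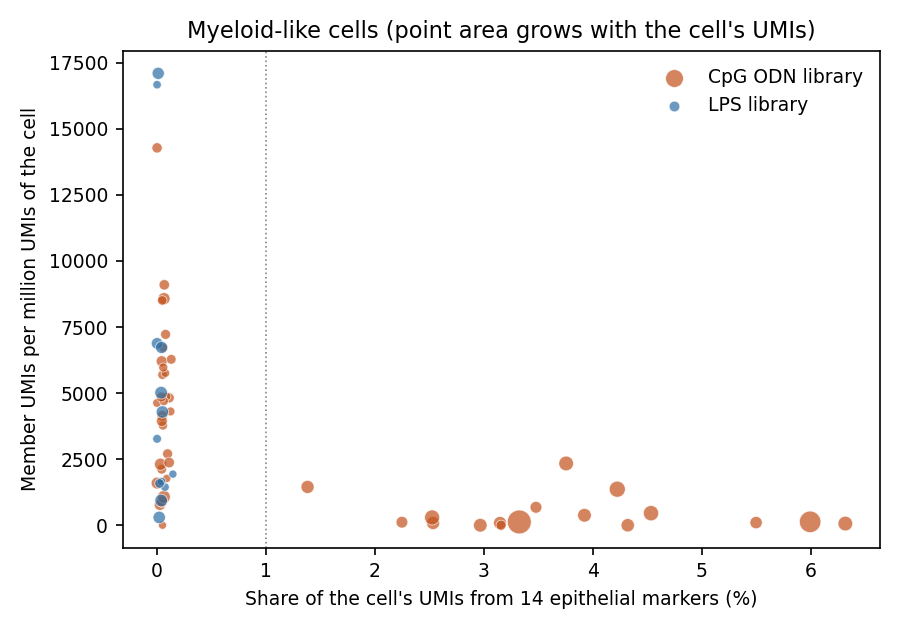
Myeloid-like cells, with the share of each cell's UMIs from 14 epithelial markers (%) on the horizontal axis and member CPM of the cell on the vertical axis. Orange points are CpG ODN cells, blue points are LPS cells, point area grows with the UMIs of the cell, and the dotted line marks 1%. The 17 cells to the right of the line are all from the CpG ODN library.

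Endothelial-like cells, 49 and 24 in number, had high levels with both ligands, 3187 and 2939 CPM (1.09, 0.968 to 1.22). Of 17 compared members 2 were higher after CpG ODN, against 6.10% of all genes, and 1 was lower, against 3.70%. *Iigp1* was the leading member, at 581.5 and 448.3 CPM (1.297, 0.976 to 1.73), followed by *Irf1* at 412.9 and 326.5 CPM (1.26) and *Bst2* at 324.1 and 393 CPM (0.825). The higher members were both chemokines. *Cxcl9* had 19 and 2 UMIs (7.62), with all 19 in 1 cell, and *Cxcl10* had 55 and 11 (4.01), with 69.1% in 1 CpG ODN cell. The lower member, *Rsad2*, which encodes the antiviral enzyme viperin, had 8 and 14 UMIs (0.458), and its interval of 0.167 to 1.17 included 1.

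Lymphoid and Schwann-like cells gave fewer members with enough UMIs. In B-like cells (284 and 69) the summed level was 652.1 and 523.6 CPM (1.25, 1.02 to 1.53), and 0 of 8 compared members passed 2-fold, against 7.25% of genes higher and 2.94% lower. *Ifi27l2a* led, at 293.6 and 194.2 CPM (1.51, 1.09 to 2.13), and *Stat2* was at 25.1 and 12.7 CPM (1.98). *Isg15* had 0 and 2 UMIs and *Cxcl10* 0 and 0. *Isg15* and *Usp18* together were at 2.951 and 8.445 CPM, against 7.64 and 2.738 CPM in epithelial-like cells. These counts are too few to place B-like cells below the epithelium. In T-like cells (80 and 26) it was 787.6 and 801.1 CPM (0.983, 0.776 to 1.25), 0 of 4 passed 2-fold, against 5.67% higher and 3.99% lower, and *Ifi27l2a* was at 300.8 and 193.1 CPM (1.56, 0.992 to 2.51). In Schwann-like cells (23 and 11) it was 2049 and 1765 CPM (1.16, 0.842 to 1.61), and of 2 compared members 0 were higher, against 9.19%, and 1 was lower, against 5.21%. That member was *Irf1*, with 21 and 34 UMIs (0.490, 0.270 to 0.869).

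**Figure D5:**
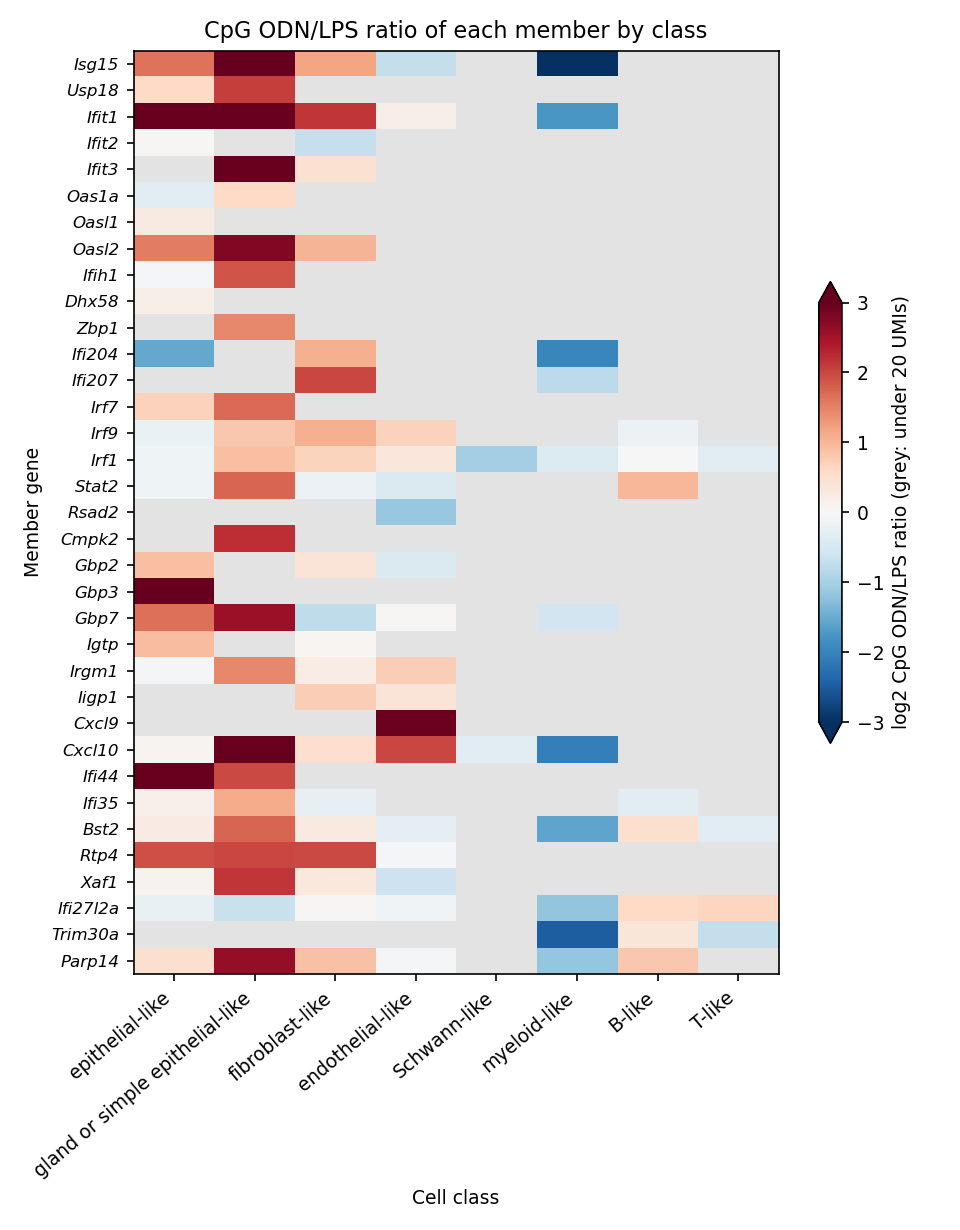
CpG ODN/LPS ratio of each member (rows) in each cell class (columns), on a log2 colour scale, with red for higher and blue for lower after CpG ODN and grey where a member had under 20 UMIs in the class. The gland or simple epithelial-like column is red for 22 of its 23 members, and the myeloid-like column is blue for all 11.

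Read across classes, the members kept different company. *Irf1* was compared in all 8 classes, with ratios from 0.490 in Schwann-like cells to 1.87 in gland or simple epithelial-like cells. *Isg15* was compared in 5 classes, with ratios from 0.106 in myeloid-like to 8.32 in gland or simple epithelial-like cells, and *Ifit1*, also in 5, ran from 0.296 in myeloid-like to 8.94 in epithelial-like cells. *Ifi27l2a* ran from 0.441 in myeloid-like to 1.56 in T-like cells. Several members belong to families of close copies, among them *Ifit3* and *Ifit3b*, *Ifi204* and *Ifi207*, *Oas1a*, *Trim30a* and *Ifi27l2a*, and as reads that fit more than 1 gene are left out by the counting program, the counts of these members are uncertain. Doublets were neither called nor removed.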

How the data were processed

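Cells of palatal gingiva from 4 mice per ligand were combined into 1 library each for CpG ODN and LPS. The deposited values are UMI counts per gene and barcode, which the authors made with Cell Ranger and did not normalize. The headers name its version as 4.0.0. Seurat is listed in the submitters' notes. The genome build is not given in the sources used here, and 32235 of 32285 gene identifiers, with all 38 members, were in the GENCODE annotation of GRCm38, from which coordinates were taken.

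A cell was kept when 800 or more genes were detected in it. Log values at 10000 UMIs per cell of 2000 variable genes were reduced to 30 principal components. Leiden clustering of 15 nearest neighbours (igraph 0.11.9 and leidenalg 0.10.2, resolution 1.0) was run without the members and pathway genes. A cluster was named from marker lists when at least 3 markers were found in 20% of its cells at 2-fold over other cells. Of 29 clusters 2 stayed unnamed, and germinal-centre B-like cells (238 and 4) and other classes with under 10 cells in a library were not compared. The names were rebuilt here and need not match those of the study. No cell was removed as a doublet.

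UMIs were summed per class and library. CPM have exact Poisson intervals and ratios have exact conditional binomial intervals, at 95%. A count of 0 was taken to allow 3 UMIs. With 1 library per ligand no p-value was computed. The computation was tested on simulated data and used Python 3.11.15, numpy 2.4.6, scipy 1.17.1, pandas 2.3.3, scikit-learn 1.9.0 and matplotlib 3.10.9.

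The members and the gene lists were chosen with earlier results of these data known. In each class the members with the 5 highest CPM, and the 4 lowest and 4 highest ratios among members with at least 20 UMIs, were eligible to be named, with the 4 transcription factors and both chemokines, the interferon receptors and ligands, and pathway genes past 2-fold. Members named in clusters 7, 14, 22 and 27 and in the cells rich in epithelial markers were chosen after their values were seen. One gene is not reported here. Alternatives varied the cell filter, clustering, class rule, scaling, thresholds and cells left out.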

Additional observations from a re-analysis of the deposited data

Results flagged for a closer look

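The direction of the CpG ODN/LPS ratio differed between cell classes for the summed level and for *Bst2*, *Parp14*, *Cxcl10*, *Isg15*, *Ifit1* and *Ifi204*. Each passed 2-fold both ways, with intervals on opposite sides of 1. *Irf1*, *Ifi27l2a*, *Irf9* and *Ifi207* also had intervals on both sides of 1 but did not pass 2-fold both ways. With 1 library per ligand the difference between classes was not tested. The summed ratio was 3.98 in gland or simple epithelial-like cells and 0.355 in myeloid-like cells. *Bst2* was at 3.35 and 0.334 in these classes, and *Parp14* at 6.27 and 0.444. *Cxcl10* was at 4.01 in endothelial-like, 38.2 in gland or simple epithelial-like and 0.243 in myeloid-like cells. *Isg15* was at 3.10 in epithelial-like, 8.32 in gland or simple epithelial-like and 0.106 in myeloid-like cells. After LPS, 1 myeloid-like cell held 57 *Isg15* UMIs and another held 12, of 79 UMIs of *Isg15* and *Usp18* together. *Ifit1* was at 8.94 in epithelial-like, 4.46 in fibroblast-like, 7.82 in gland or simple epithelial-like and 0.296 in myeloid-like cells. *Ifi204* had the other order, at 2.10 in fibroblast-like, 0.343 in epithelial-like and 0.257 in myeloid-like cells. Without cells with 2 markers of another lineage, the epithelial-like ratios of *Ifit1* and *Ifi204* and the gland or simple epithelial-like ratio of *Parp14* reversed, as given below. In epithelial-like cells 1 CpG ODN cell held 41 *Ifit1* UMIs. Of the *Cxcl10* UMIs, 1 LPS cell held 92 of 100 in myeloid-like cells and 1 CpG ODN cell held 69.1% in endothelial-like cells, and without top cells the myeloid-like ratio of *Cxcl10* was 1.73. Without the myeloid-like cells rich in epithelial markers, the myeloid-like ratios of *Bst2* (0.835), *Parp14* (0.996), *Ifit1* (0.543) and *Ifi204* (0.652) had intervals that included 1, and the summed ratio was 0.837 (0.744 to 0.942), or 1.05 (0.918 to 1.21) when the top cell of each library was left out too.

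Barcodes left out by the gene filter also held members. In those with over 50% hemoglobin UMIs, 474 in the CpG ODN library and 604 in the LPS library, *Isg15* had 102 and 132 UMIs and *Rsad2* had 132 and 237 UMIs, above the 3 UMIs that a count of 0 allows. Per 1000000 UMIs other than hemoglobin, *Isg15* was at 1436 and 1068 and *Rsad2* at 1858 and 1918. *Krt14*, a keratin of the surrounding epithelium, had 152 and 223 UMIs in the same barcodes.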

How the results depend on the processing

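No paired analysis was possible because there is 1 library for each ligand, and for the same reason no replicate could be left out. Over the 8 classes, the summed ratio gave 119 values under the alternatives, of which 82 moved by less than the counting interval, 34 moved further in the same direction or across an interval that had included 1, and 3 reversed. Of 78 counts of members past 2-fold, 52 were within 1.5 times the reported count. Of 67 single-member ratios, 24 reversed under at least 1 of their alternatives, and of their 778 values 656 kept their place, 92 moved and 30 reversed. The causes of these changes were not tested except where the construction gives them.

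For the summed ratio, B-like cells (1.25) reversed to 0.70 with at least 1200 detected genes and to 0.40 with separate clustering of each library. Myeloid-like cells (0.355) reversed to 1.75 when cells were taken one by one by signature genes, and moved to 0.792 with at least 200 detected genes, to 0.668 at resolution 0.5, at resolution 2.0 and with all genes allowed in the clustering, to 0.602 as a mean over cells, to 0.438 when scaled without mitochondrial, ribosomal protein, hemoglobin, keratin and immunoglobulin genes, to 0.445 without top cells, to 0.837 without cells rich in epithelial markers and to 0.443 without the 5% of cells with the most UMIs. Gland or simple epithelial-like cells (3.98) stayed above 1 in these, at 2.57 and 2.73 with a minimum of 200 and 1200 detected genes, 2.37 with separate clustering of each library, 2.72 with all genes allowed in the clustering, 3.32 as a mean over cells, 3.04 without cells with 2 markers of another lineage, 3.18 without top cells, 3.21 without *Cxcl10* and 4.85 without cells rich in epithelial markers. Fibroblast-like cells (1.39) moved to 1.59 by signature genes, 1.55 as a mean over cells, 1.58 without cells rich in epithelial markers and 1.62 without the cells with the most UMIs. Epithelial-like cells (0.989) moved to 0.95 and 0.954 with a minimum of 200 and 1200 detected genes, 0.909 with separate clustering of each library, 0.933 with all genes allowed in the clustering, 0.885 without cells with 2 markers of another lineage, 1.03 without *Irf1* and 1.18 as the median over members. Endothelial-like cells moved to 1.56 without cells with 2 markers of another lineage, T-like cells to 0.557 with at least 1200 detected genes, and Schwann-like cells to 1.85 without *Irf1*, 0.638 as the median over members and 1.65 without the cells with the most UMIs. In the lower spinous layer (1.10) the ratio reversed to 0.874 with separate clustering of each library and to 0.888 without cells with 2 markers of another lineage.

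Counts of members past 2-fold moved as follows. The share of all genes at each altered setting is not given beside them. They therefore show how far a count moved, and not whether it exceeds that share. With at least 200 detected genes they were 1 in B-like, 3 in Schwann-like, 4 in fibroblast-like and 1 in myeloid-like cells, and with at least 1200 they were 4 in fibroblast-like cells. With a minimum of 10 UMIs they were 2 in B-like, 2 in Schwann-like, 4 in T-like and 18 in myeloid-like cells, and with 50 UMIs they were 1 in endothelial-like, 3 in fibroblast-like, 10 in gland or simple epithelial-like and 3 in myeloid-like cells. At 1.5-fold they were 3 in B-like, 2 in T-like, 7 in endothelial-like and 12 in fibroblast-like cells, and at 3-fold 0 in Schwann-like, 3 in fibroblast-like and 5 in myeloid-like cells. Without the cells with the most UMIs they were 1 in B-like, 0 in Schwann-like and 5 in myeloid-like cells. Without top cells the count was 0 in Schwann-like cells, without cells rich in epithelial markers it was 1 in myeloid-like cells, and without cluster 7 it was 5 in epithelial-like cells.

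Single members reversed as follows. Without cells with 2 markers of another lineage, which left 1877 of 3799 and 274 of 996 epithelial-like cells, the ratios in epithelial-like cells were 3.55 for *Ifi204*, 0.631 for *Ifi44* and 0.868 for *Ifit1*, in the basal layer 0.891 for *Gbp7*, 0.693 for *Ifi44* and 0.990 for *Ifit1*, in dividing cells 0.639 for *Oasl2*, in fibroblast-like cells 0.95 for *Isg15*, 0.777 for *Oasl2* and 0.604 for *Rtp4*, and in gland or simple epithelial-like cells 0.990 for *Ifi35* and 0.789 for *Parp14*. This rule left too few myeloid-like, T-like and Schwann-like cells for a value. By signature genes the myeloid-like ratios were 1.46 for *Ifi204*, 1.48 for *Cxcl10*, 1.08 for *Trim30a*, 1.93 for *Bst2*, 2.14 for *Ifi27l2a*, 2.25 for *Parp14* and 1.25 for *Ifit1*. Without top cells *Cxcl10* was at 1.73 in myeloid-like cells, and without cells rich in epithelial markers *Ifi27l2a* was at 1.00. As a mean over cells *Cxcl9* was at 0.877 in endothelial-like and *Oasl2* at 0.774 in fibroblast-like cells. With separate clustering of each library *Irf1* was at 1.57 in Schwann-like cells and *Irf7* at 0.875 in the basal layer. In the basal layer *Isg15* was at 0.660 and *Irf7* at 0.822 at resolution 0.5, and without cluster 7 *Isg15*, *Oasl2* and *Irf7* were at 0.656, 0.530 and 0.707. The alternatives without cluster 7, without cells rich in epithelial markers and without the cells with the most UMIs, and the counts without top cells, were chosen after seeing the data. Depth limits classes of few cells most, since their members had under 20 UMIs.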

Other observations

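Members were also measured in cells that entered no comparison. The 238 germinal-centre B-like cells of the CpG ODN library, set against 4 cells of the LPS library, had 530 member UMIs or 266.8 CPM, of which 192 UMIs were *Ifi27l2a*, 33 *Irf1* and 18 *Isg15*. The 29 and 8 erythroid-like cells had 117.1 and 165.9 CPM. An unnamed cluster led by *Pln*, with *Rgs5*, *Pdgfrb* and *Notch3* among its markers, held 65 and 16 cells with 1032 and 841.4 CPM (1.23, 1.006 to 1.503). Another unnamed cluster, led by *Il17b*, held 11 and 6 cells with 2269 and 3591 CPM (0.632, 0.492 to 0.807). Among the hemoglobin-rich barcodes *Irf7* had 15 and 11 UMIs, while *Irf1* had 2 and 3 and *Ifit1* had 1 and 2.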
